A study of Mus musculus with 4 samples.

Results

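The genes described here are 10 enzymes and partners that write or erase DNA methylation and the Polycomb mark on histone H3: Dnmt1, Dnmt3a, Dnmt3b, Uhrf1, Tet1, Tet2, Tet3, Ezh1, Ezh2 and Suz12. They were taken by name, and all 10 were among the 17561 genes of the count table. Mouse BM was taken 4 weeks after stem cell transplantation (SCT), and its CD8+ T cells were sorted and sequenced as single cells with a 10x 5′ kit, in which each unique molecular identifier (UMI) counts 1 captured RNA molecule. Mice on the C57BL/6 background, 8 to 12 weeks old, carried myeloma from 2 weeks before the transplant, and recipients and donors were wild-type or CRBN-transgenic, a modification of cereblon that lets lenalidomide act in mouse cells. The 4 groups received αTIGIT with vehicle, an isotype control (cIg) with lenalidomide, αTIGIT with lenalidomide, or cIg with vehicle. Antibody started on the day of SCT, and lenalidomide or vehicle on day 14. Each group was 1 library from 5 pooled mice, so no spread between mice can be given. The labels do not say which genotype a pool had.

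DNMT3A and DNMT3B add methyl groups to unmethylated DNA, whereas DNMT1 copies methylation to the new strand after replication, guided by UHRF1, which binds hemimethylated sites. TET enzymes oxidise methylated cytosine, the first step of its removal. EZH2 or its paralog EZH1 is the catalytic subunit of Polycomb repressive complex 2 (PRC2), which methylates lysine 27 of histone H3 and needs SUZ12 to stay assembled. In CD8+ T cells DNMT3A and EZH2 are known for silencing genes of the naive and memory programs as effectors differentiate, and TET2 for restraining memory formation.

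The table held 11754 cells in 4 libraries of 1725 to 4237 cells and 15556967 to 38440687 UMIs, and 112 cells had a barcode sequence that also occurred in another library. The libraries carry numbers from 1 to 4 that no label ties to a treatment, so every value is given by library number and no treatment was compared. The study's 8 clusters matched the transcripts they are named for only in part. Ccr7 was at 226 CPM (UMIs per 1000000 UMIs) in naive cells (Tn) against 4.68 to 63.8 elsewhere, and Mki67 at 833 CPM in cycling cells against 6.60 to 158 elsewhere. Havcr2, the gene of TIM-3, was as high in TIGIT+ Teff (78.8 CPM) as in TIM-3+ Tex (76.7), and Tigit was lower in TIGIT+ Teff (313 CPM) than in TIM-3+ Tex (567) and transitory Teff (338). Gzma was at 684 CPM in GzmA+ Tex, below TIM-3+ Tex (1192), cycling cells (724) and TIGIT+ Teff (686), whereas Gzmb was highest in GzmB+ Teff (584 CPM). The median cell had 13959.5 UMIs in the cycling cluster and 5545 to 10378 in the others. In GzmA+ Tex, 91.2% of cells had a UMI of a macrophage or plasma cell marker, with summed macrophage markers at 1216 CPM against 5.32 to 63.4 elsewhere. Cycling cells had one in 24.1% of cells and the summed level of 63.4 CPM, and TIGIT+ Teff in 22.9%, against 4.47% to 15.3% in the remaining clusters.

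Levels are CPM over the cells of a cluster. Because the clusters were built from the same expression values, differences between them are a description without a test, and intervals at the 95% level cover counting error only. A gene was counted as higher or lower where the pooled CPM differed by more than 2-fold and each of the 4 libraries moved the same way. The share of all 10991 genes with at least 100 UMIs that met the same rule is the background for each count. With a library left out, or with another total, cell filter or cell naming, it was not computed. The cells without proliferation transcripts were an exception. An annotated gene on the opposite strand overlaps Dnmt3a, Dnmt3b, Tet2, Tet3, Ezh2 and Suz12, and the strand setting of the counting is not given in the sources used here, so reads of such partners could be among their UMIs.

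Cycling cells held the highest levels of 4 members: the maintenance pair Dnmt1 and Uhrf1, and the PRC2 subunits Ezh2 and Suz12. These 4 of 10 were higher than in the 5 effector and exhausted clusters combined, against 5.54% of all genes. No member was lower, against 2.67% of all genes. The median log2 ratio of the 10 members was 0.05, near that of all genes at -0.01, since the other 6 members lay between -0.60 and 0.08. The combined clusters included TIGIT+ Teff, where most members were high. The other effector and exhausted clusters together had 68.9 CPM of Suz12, 29.2 of Tet3, 18.5 of Tet2 and 23.8 of Ezh1. Cycling cells had 169, 37.8, 20.1 and 18.8 CPM, so only Ezh1 of these was lower in them. Without cells that carried 2 TRB chains or markers of other cell types, the same 4 members were higher. The share of all genes was not computed there.

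Uhrf1 (ENSMUSG00000001228, chr17:56303321-56323486, plus strand, GRCm38) had the widest range of the 10 as a fold, from 7.69 to 117 CPM. In cycling cells it stood at 114, 112, 137 and 113 CPM in libraries 1 to 4, and in Tn at 9.77, 7.19, 7.82 and 9.19 CPM. The lowest cycling value was above the highest of any other cluster, which was 47.9 CPM in TIGIT+ Teff of library 2. Pooled, Uhrf1 was at 117 CPM in cycling cells and 15.97 CPM in the effector and exhausted clusters, a log2 ratio of 2.87 (95% interval 2.75 to 2.995, libraries 2.61 to 3.22).

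Dnmt1 (ENSMUSG00000004099, chr9:20907209-20959888, minus strand), the maintenance methyltransferase, was at 233, 201, 302 and 178 CPM in cycling cells of libraries 1 to 4, with library 3 the highest. TIGIT+ Teff came next, at 179, 176, 190.1 and 112 CPM. Cycling cells were above TIGIT+ Teff in each library, although the ranges overlapped across libraries. In the remaining clusters Dnmt1 lay between 38.4 CPM, in Tn of library 2, and 112 CPM, in GzmA+ Tex of library 3. The log2 ratio of cycling to effector and exhausted cells was 1.397 (1.34 to 1.46, libraries 1.29 to 1.56), less than that of Uhrf1.

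Ezh2 (ENSMUSG00000029687, chr6:47530139-47595341, minus strand), the PRC2 methyltransferase of dividing cells, was at 162, 182, 219 and 177 CPM in cycling cells. Its highest value in any other cluster and library was 75.2 CPM, so the cycling values did not overlap with the rest. The log2 ratio was 2.02 (1.94 to 2.10, libraries 1.87 to 2.15). Tcm had the least Ezh2 in libraries 1, 2 and 4, at 17.4, 19.0, 26.2 and 18.9 CPM, and Tn was close to it at 20.8 to 27.8 CPM.

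Suz12 (ENSMUSG00000017548, chr11:79993106-80034123, plus strand), the PRC2 scaffold, was at 175, 137, 255 and 124 CPM in cycling cells and at 143, 128, 163 and 112 CPM in TIGIT+ Teff. It passed 2-fold narrowly, with a log2 ratio of 1.07 (1.01 to 1.14, libraries 0.85 to 1.33), and without library 3 it was 0.98 and no longer passed. It also fell short without ribosomal and mitochondrial genes in the total (0.97) and by the median of the 4 libraries (0.998). Malat1, a nuclear transcript, was also highest in the cycling cells of library 3, at 3746 CPM against 1788 to 2543 CPM in the other libraries, and its part in the result was not tested.

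Ezh1 (ENSMUSG00000006920, chr11:101191115-101226463, minus strand), the paralog of Ezh2 found in resting cells, went the other way. It was at 20.7, 12.8, 26.2 and 14.2 CPM in cycling cells, the lowest cluster in libraries 1, 2 and 4. Its log2 ratio to the effector and exhausted clusters was -0.58 (-0.73 to -0.43), below 0 in 4 of 4 libraries and short of 2-fold. The catalytic subunits thus had opposite signs. Ezh2 as a share of the UMIs of both paralogs was 48.8% in Tn, 41.7% in Tcm, 54.7% to 66.3% in the effector and exhausted clusters and 90.5% in cycling cells (Clopper-Pearson interval 89.6% to 91.3%). By library it was 88.7%, 93.4%, 89.3% and 92.6% in cycling cells, above the highest value of any other cluster, 77.6% in GzmA+ Tex of library 2. Dnmt1 likewise made up 85.0% of the UMIs of the 3 methyltransferase genes in cycling cells and 64.3% to 72.3% in the other clusters.

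**Figure D1:**
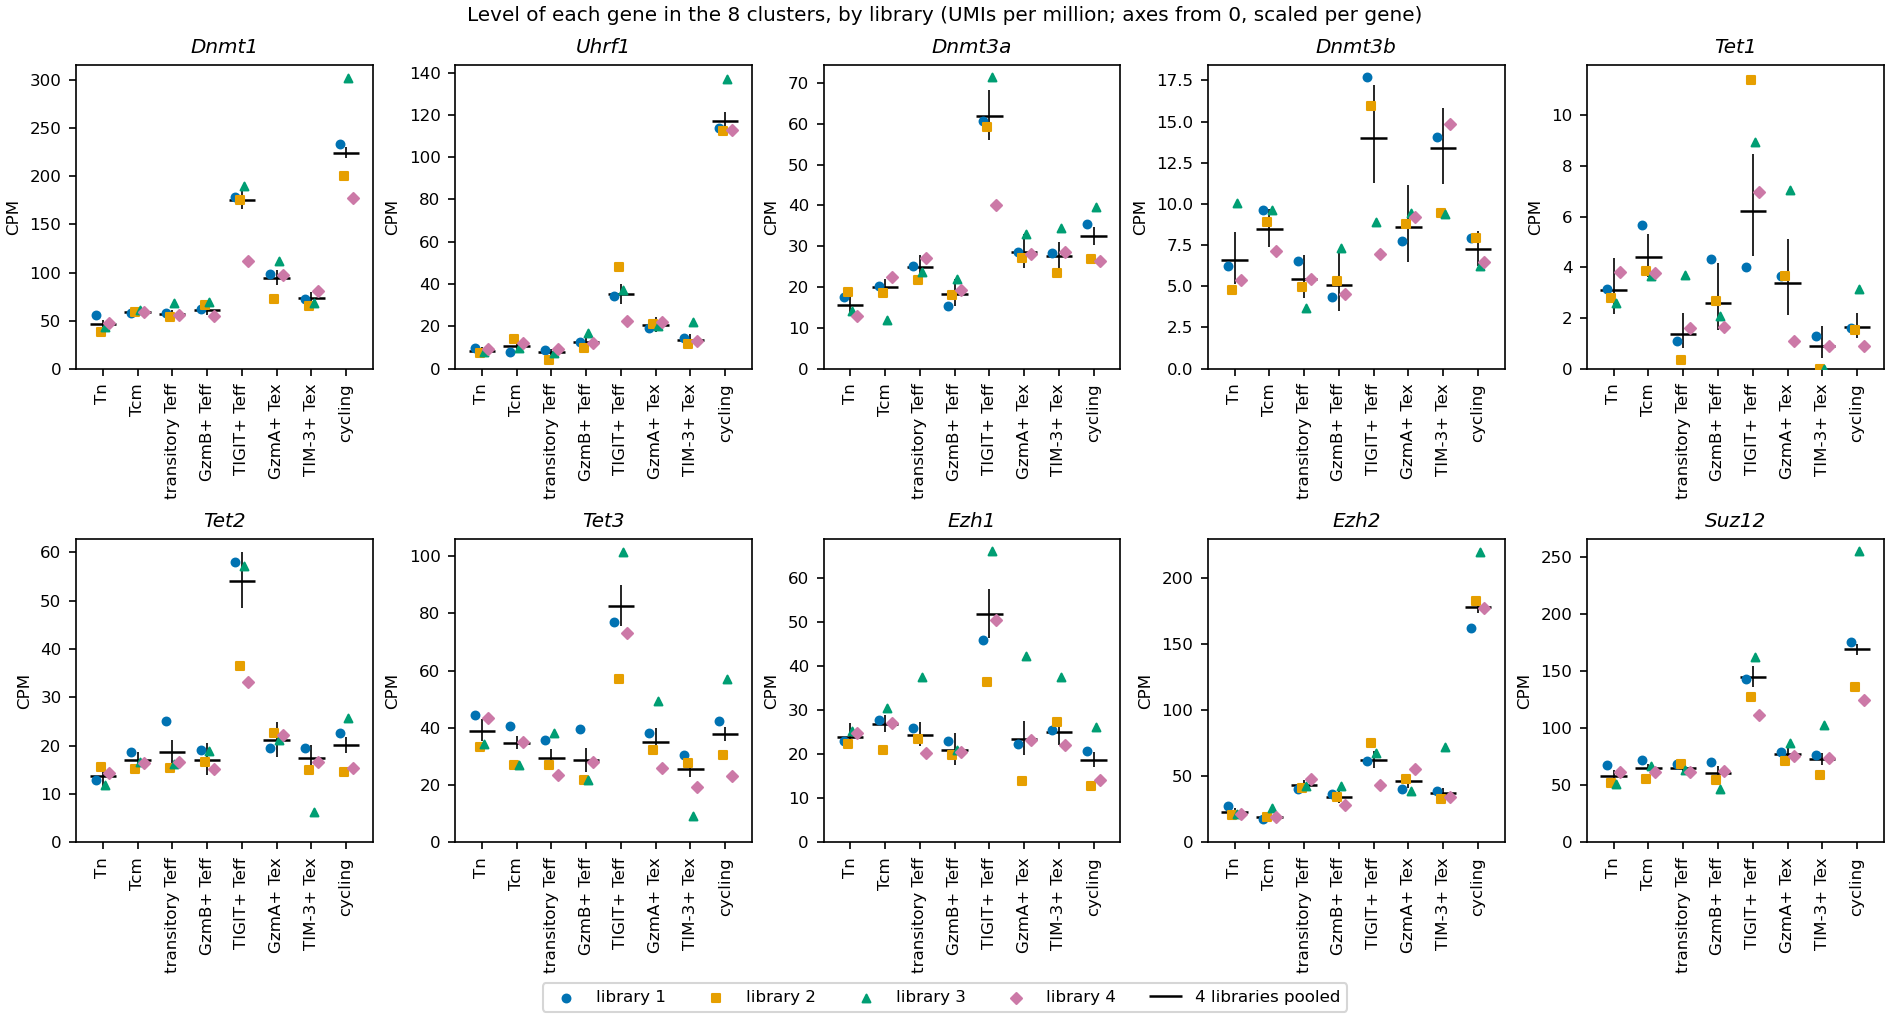
CPM (vertical axis, from 0 and scaled per gene) of each of the 10 genes in the 8 clusters (horizontal axis). Points are libraries 1 to 4, and black bars are the 4 libraries pooled with their 95% Poisson intervals. Dnmt1, Uhrf1, Ezh2 and Suz12 were highest in cycling cells, Uhrf1 at 117 CPM, whereas Dnmt3a, Tet2, Tet3 and Ezh1 were highest in TIGIT+ Teff.

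The gene starts of the members were read for sequence words of E2F, the factor family that drives genes at the entry into DNA replication. RefSeq windows of 300 bases on GRCm38.p6, 250 before the start and 50 after it, matched all 10 members with 15 windows. The words searched on both strands were TTTCCCGC, TTTCGCGC, TTTGCCGC and TTTGGCGC, of which 744 of 32851 windows in the annotation held one (2.26%). Dnmt1, Uhrf1, Ezh2 and Suz12 each had 1 window with a match, and no window of the other 6 members had any. These words contain CpG, and the 4 windows with a match had 31 to 41 CpG each against a median of 7 over all windows, so most of the windows behind that share are poorer in CpG. The windows of the other 6 members had 17 to 57. The words were chosen with the levels known. A match is a description of the letters and not of binding. The stretches around the matches are shown on the strand of the gene, with the word in capitals, because the 4 genes with a match were also the 4 higher in cycling cells.
Dnmt1, chr9:20952824-20952853, minus strand, bases -219 to -212 from the start, word read on the opposite strand: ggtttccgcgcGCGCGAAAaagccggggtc
Dnmt1, chr9:20952574-20952601, minus strand, bases 34 to 41: gcggggcagcgTTTGGCGCgggctgtgc
Uhrf1, chr17:56304117-56304146, plus strand, bases -185 to -178: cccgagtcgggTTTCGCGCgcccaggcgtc
Ezh2, chr6:47595009-47595038, minus strand, bases 4 to 11: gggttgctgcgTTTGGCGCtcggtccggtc
Suz12, chr11:79992876-79992905, plus strand, bases -219 to -212: cgacccctcatTTTCCCGCgaattcagttc

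The matches of Dnmt1 and Uhrf1 shared the word TTTCGCGC, and Dnmt1 and Ezh2 shared TTTGGCGC. Which annotated start the cells used was not measured here. CCAAT, the word bound by the factor NF-Y, was in windows of Dnmt1, Uhrf1, Tet3, Ezh2 and Suz12 and in 37.4% of all windows. TTTGAA or TTCGAA, words of the element that times genes to mitosis, were in windows of Dnmt1, Dnmt3b and Suz12 and in 19.2% of all windows.

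Within the cycling cluster the 4 genes did not move alike. Cells were ranked in each library by their UMIs of 40 S-phase genes as a share of S and G2/M genes, without the members, and cut into 4 bins of 480 to 484 cells, from G2/M-rich (bin 1) to S-rich (bin 4). Dnmt1 and Uhrf1 were more than 2-fold higher in bin 4 than in bin 1 in all libraries, 2 of 10 members against 5.07% of all genes. No member was lower, against 3.51%.

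Uhrf1 climbed through the bins at 38.4, 80.4, 146 and 196 CPM, and its log2 ratio of bin 4 to bin 1 was 2.35 (2.15 to 2.56). The libraries held to 33.9 to 41.6 CPM in bin 1 and 169 to 227 CPM in bin 4, with no overlap. Dnmt1 was at 107, 208, 286 and 284 CPM, a log2 ratio of 1.41 (1.28 to 1.54), and so reached its plateau a bin before Uhrf1 reached its highest level.

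Ezh2 varied less across the same cells, at 159, 207, 192 and 152 CPM. Bins 4 and 1 did not differ beyond counting error, with a log2 ratio of -0.07 (-0.19 to 0.06, libraries -0.16 to 0.02). Suz12 was at 126, 191, 194 and 160 CPM, a log2 ratio of 0.34 (0.20 to 0.48). In both genes the middle bins were the highest. Even the lowest bin of Ezh2 stood above every other cluster, while Uhrf1 in bin 1 lay near the level of TIGIT+ Teff, at 35.2 CPM.

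Of the genes not raised in cycling cells, Tet2 was lower toward S phase, at 23.7 CPM in bin 1 and 14.8 CPM in bin 4, a log2 ratio of -0.68 (-1.06 to -0.30) that was below 0 in 4 of 4 libraries. Dnmt3b was at 5.93 CPM in bin 1 and 10.8 CPM in bin 4, on 36 and 72 UMIs. Its log2 ratio of 0.86 (0.27 to 1.48) became 1.43 without library 1, where it passed the rule. Dnmt3a, Tet1, Tet3 and Ezh1 had log2 ratios between -0.87 and 0.33, with signs that varied between libraries.

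**Figure D2:**
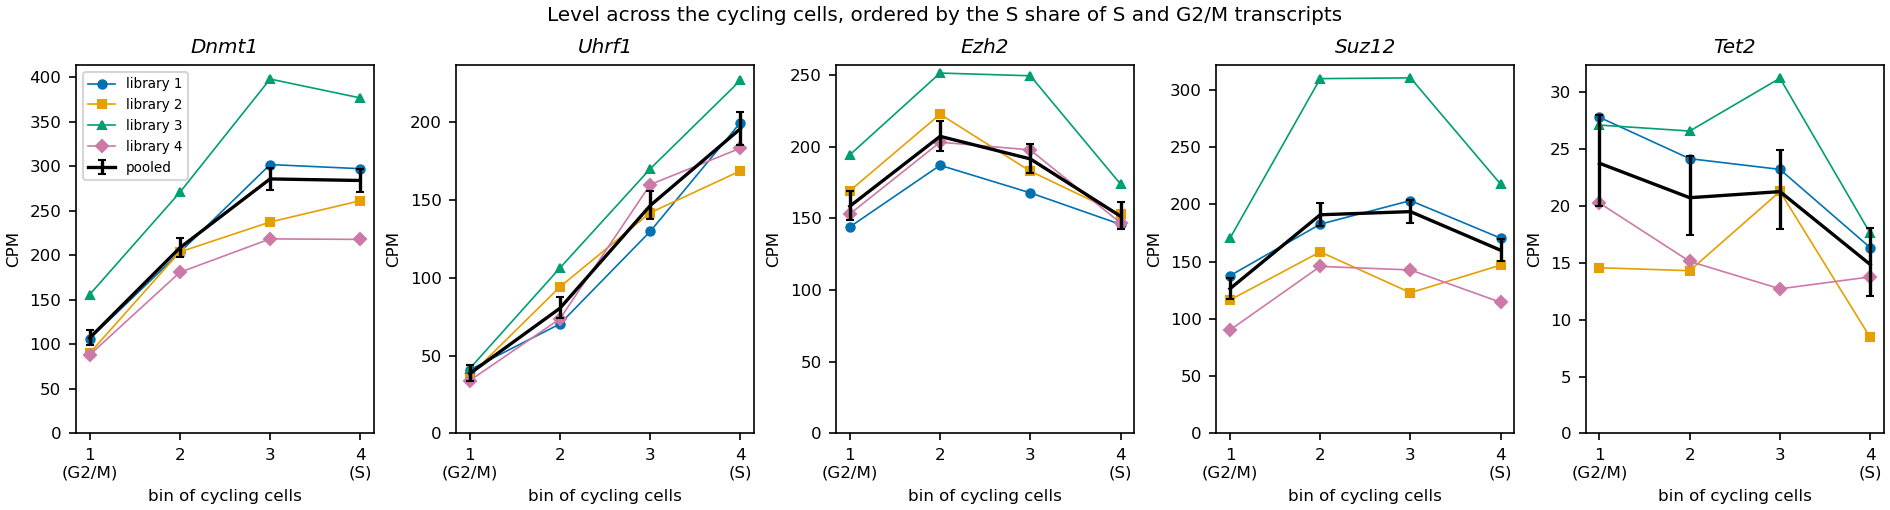
CPM (vertical axis, from 0) of Dnmt1, Uhrf1, Ezh2, Suz12 and Tet2 in bins of the cycling cells ordered from G2/M-rich to S-rich (horizontal axis). Colored lines are libraries 1 to 4, and the black line is the pooled value with its 95% Poisson interval. Uhrf1 rose from 38.4 to 196 CPM along the axis, whereas Ezh2 ended at 152 CPM, near its first bin.

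Cells that carried no UMI of the 6 proliferation transcripts Mki67, Top2a, Birc5, Pclaf, Rrm2 and Tyms were described separately. They made up 71.6% of Tn, 69.1% of Tcm and 31.7% to 57.8% of the effector and exhausted clusters, but only 9 cycling cells. In them Uhrf1 was at 4.97 to 6.25 CPM in 6 of the 7 clusters that were not cycling and at 10.96 CPM, on 16 UMIs, in TIGIT+ Teff. Its log2 ratio of effector and exhausted clusters to Tn shrank from 0.90 to 0.11 (-0.42 to 0.65), and that of Dnmt1 from 0.89 to 0.49 (0.31 to 0.68). That of Ezh2 went from 0.94 to 0.69 (0.43 to 0.95, libraries 0.57 to 1.10). Dnmt1 and Ezh2 thus had intervals above 0 in cells without these transcripts, where the median of all genes was 0.26. These ratios included TIGIT+ Teff, at 115 CPM of Dnmt1 and 43.8 CPM of Ezh2 in such cells. The other effector and exhausted clusters together had 53.9 and 32.9 CPM, and Tn had 42.1 and 21.1 CPM. The Uhrf1 interval, on 103 and 44 UMIs, included 0 and also the Dnmt1 value, so a difference between Uhrf1 and Dnmt1 was not shown. No member was higher or lower there, against 11.2% and 1.58% of all genes.

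Tcm held a small group that stood apart for the same genes. Of the 3418 cells that the study named Tcm, 132 (3.86%) carried the number of a Leiden cluster made up mostly of Tn. They came from all 4 libraries. Uhrf1 was at 35.9, 64.8, 81.3 and 112 CPM in these cells of libraries 1 to 4, and at 7.01, 5.33, 3.90 and 4.66 CPM in the 3281 Tcm cells of the main Tcm number. The 132 cells thus carried 124 of the 272 Uhrf1 UMIs of Tcm.

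Their Dnmt1 was at 138 CPM and their Ezh2 at 64.7 CPM, against 54.0 and 15.97 CPM in the main Tcm group. Suz12 was at 74.4 and 64.7 CPM, and its intervals overlapped. Mki67 reached 28.2 CPM in them, far from the 833 CPM of cycling cells, while the summed S-phase genes were at 2984 CPM against 820 CPM in the main Tcm group. Their median UMI number was 11033.5 against 6899, and its part in the result was not tested. This group was singled out after its values had been seen.

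Tcm and transitory Teff were also split by the proliferation transcripts. The 121 Tcm cells with 3 or more of these UMIs were above the 2361 cells with none for Uhrf1 (82.8 and 4.97 CPM, log2 ratio 4.06, 3.64 to 4.48) and Ezh2 (66.2 and 15.2 CPM, log2 ratio 2.12, 1.76 to 2.47), 2 of 10 members against 2.16% of all genes. Without library 1, Dnmt1 also passed, at 1.66, and Uhrf1 was 2.88 without library 4. No member was lower, against 3.35% of all genes. The median UMI number was 10693 in the first group and 6723 in the other. The overlap of the 121 cells with the 132 Tcm cells described above was not counted, so both may describe the same cells. In transitory Teff 124 cells with 3 or more stood against 1058 with none, and no member was higher or lower, against 1.06% and 2.12% of all genes. Uhrf1 was at 18.7 and 5.34 CPM there, with a log2 ratio of 1.81 that was -0.14 in library 1 and 2.44 without it, when it passed, and 0.98 without library 4. Dnmt3b, on only 4 UMIs in the first group, had a log2 ratio of -0.76, which was -2.13 without library 4, where it passed as lower.

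Against Tn, the effector and exhausted clusters together had no member past 2-fold in either direction. Among all genes 13.5% were higher and 1.82% lower. The members' median log2 ratio was 0.63 and that of all genes 0.31. Dnmt3a (0.97), Ezh2 (0.94), Uhrf1 (0.90), Dnmt1 (0.89) and Tet2 (0.80) were above 0 in 4 of 4 libraries. All 5 passed at 1.5-fold, a fold at which the share of all genes was not computed. The 5 ratios included TIGIT+ Teff, where most members were high. The other effector and exhausted clusters together had 25.2 CPM of Dnmt3a, 40.6 of Ezh2 and 69.3 of Dnmt1. Tn had 15.7, 22.8 and 46.1 CPM. Uhrf1 was at 12.57 CPM in those other clusters and 8.53 in Tn, and Tet2 at 18.5 and 13.7. In transitory Teff, Uhrf1 was at 7.69 CPM, below Tn. The rule was not applied to these clusters without TIGIT+ Teff. Ezh2 reached 1.04 without library 1, Dnmt3a 1.13 without library 2, and Dnmt1 and Uhrf1 reached 1.02 and 1.06 without library 4, so single libraries decided these calls. Placed by Leiden number, which moves a Uhrf1-rich group of Tcm cells into Tn, Uhrf1 had a log2 ratio of -0.08.

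Dnmt3a (ENSMUSG00000020661, chr12:3806007-3914443, plus strand), a de novo methyltransferase, was at 17.6, 18.8, 14.2 and 13.0 CPM in Tn of libraries 1 to 4. Transitory Teff had 25.1, 21.7, 23.6 and 27.1 CPM, above Tn in each library and without overlap. GzmB+ Teff, at 15.5, 17.9, 21.97 and 19.2 CPM, overlapped with Tn, and cycling cells were at 35.5, 26.9, 39.6 and 26.5 CPM. Dnmt3a thus differed little between cycling cells and the effector and exhausted clusters together, with a log2 ratio of 0.08 (-0.05 to 0.20). The combined clusters included TIGIT+ Teff, at 62.0 CPM. Pooled, cycling cells were at 32.5 CPM and the other effector and exhausted clusters together at 25.2 CPM.

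Tet3 (ENSMUSG00000034832, chr6:83362373-83459084, minus strand) had the ratio nearest to 0 in this comparison. It was at 44.6, 33.2, 34.3 and 43.4 CPM in Tn and at 35.7, 26.99, 38.3 and 23.7 CPM in transitory Teff, lower in 3 of 4 libraries. Its log2 ratio of effector and exhausted clusters to Tn was -0.07 (-0.22 to 0.09). This value pooled TIGIT+ Teff, at 82.6 CPM, with the other effector and exhausted clusters, at 29.2 CPM together. Tn lay between them at 39.1 CPM. TIGIT+ Teff stood above the other clusters in each library, at 77.1, 57.0, 101 and 73.2 CPM. Without the cells that carried proliferation transcripts the ratio to Tn was -0.20.

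Tet2 (ENSMUSG00000040943, chr3:133463679-133545139, minus strand) was at 12.9, 15.6, 11.9 and 14.3 CPM in Tn and 25.1, 15.5, 16.2 and 16.6 CPM in transitory Teff, which overlapped. Of the UMIs of the 3 Tet genes, Tet3 made up 70.0% in Tn (Clopper-Pearson interval 66.1% to 73.6%) and 57.8% to 63.5% in the other 7 clusters, and the share of Tet2 was lowest in Tn at 24.5%. Thinned to the same depth of 2500 UMIs a cell, the Tet3 share in Tn was 65.7%. Tet1 (ENSMUSG00000047146, chr10:62804570-62908996, minus strand) was sparse everywhere, with 297 UMIs in all cells, and made up 2.0% to 7.8% of the Tet UMIs.

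**Figure D3:**
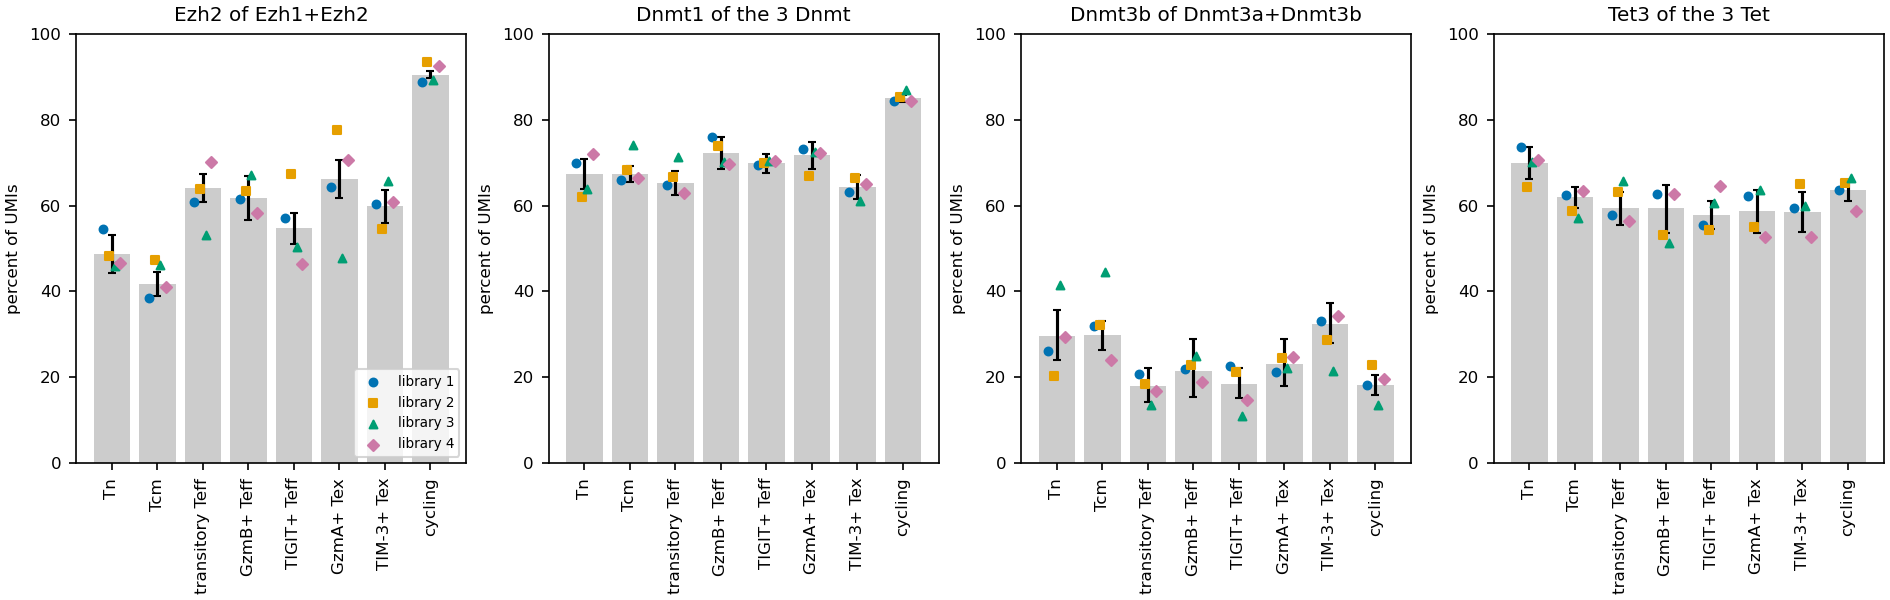
Share of UMIs (vertical axis, percent, from 0 to 100) that 1 member took among its paralogs in each of the 8 clusters (horizontal axis). Bars are the 4 libraries pooled with 95% Clopper-Pearson intervals, and points are libraries 1 to 4. The Ezh2 share stood at 90.5% in cycling cells and 41.7% in Tcm, and the Tet3 share at 70.0% in Tn.

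Tcm and Tn differed by less than 2-fold in each member. No member was higher or lower, against 5.50% and 1.97% of all genes. Pooled, 2 members ran below Tn and 8 above it. The median log2 ratio was 0.32 for the members and 0.13 for all genes, and Suz12 (0.16) and Ezh1 (0.17) lay near the latter. Tet3 had a log2 ratio of -0.17 (-0.33 to 0.00), negative in 4 of 4 libraries, and Ezh2 had -0.25 (-0.47 to -0.02), negative in 3 of 4. In cells without proliferation transcripts Ezh2 was at 15.2 CPM in Tcm and 21.1 CPM in Tn, a log2 ratio of -0.47 (-0.76 to -0.17) with 4 of 4 libraries below 0, and no member was higher or lower, against 5.46% and 2.03% of all genes. Uhrf1 had 0.32 (-0.03 to 0.67) by cluster name and -1.64 when cells were placed by Leiden number, because the 132 cells described above then counted as Tn. By number Ezh2 had -0.78 and Dnmt1 -0.09, against 0.35 for Dnmt1 by name.

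TIGIT+ Teff stood out from the other effector and exhausted clusters for most of the list. Dnmt1, Uhrf1, Dnmt3a, Tet1, Tet2, Tet3, Ezh1 and Suz12 were higher, 8 of 10 members, and 13.0% of all genes met the same rule. No member was lower, against 0.964%. The members' median log2 ratio was 1.32 and that of all genes 0.35. Without cells that carried 2 TRB chains or markers of other cell types, the same 8 members were higher. The share of all genes was not computed there.

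Tet2 was at 58.0, 36.5, 57.2 and 33.1 CPM in TIGIT+ Teff, and no other cluster in any library passed 25.7 CPM. Its log2 ratio was 1.55 (1.36 to 1.74, libraries 0.95 to 1.73). Dnmt3a was at 60.8, 59.3, 71.4 and 40.1 CPM, above every other cluster within its library, with a log2 ratio of 1.30 (1.12 to 1.47). Tet3 had a log2 ratio of 1.498 (1.34 to 1.65, libraries 1.07 to 1.62) and Ezh1 of 1.12 (0.93 to 1.30, libraries 0.73 to 1.25). Suz12 was at 1.07 (0.96 to 1.18) and at 0.99 without library 3, where it no longer passed. Without ribosomal and mitochondrial genes in the total, Ezh1 (0.98) and Suz12 (0.94) fell short of 2-fold. By the median of the 4 libraries both also fell short, at 0.92 and 0.97. Tet1 rested on 40 UMIs in TIGIT+ Teff and 66 in the others, with a log2 ratio of 1.78 (1.17 to 2.36), which was 2.41 without library 1.

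Ezh2 and Dnmt3b were the exceptions. Ezh2 was at 61.4, 75.2, 67.2 and 43.6 CPM, with a log2 ratio of 0.62 (0.46 to 0.78), and Dnmt3b had 0.78 (0.42 to 1.12) and was below 0 in library 4, where TIGIT+ Teff held 59 cells. Without library 1 the Dnmt3b ratio was 0.34. The Ezh2 share of the paralog pair was lowest in this cluster among the effector and exhausted clusters, at 54.7%.

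The cluster differed from the others in its RNA as a whole. Malat1 was at 6564 CPM in TIGIT+ Teff and at 2271 to 2984 CPM in the other clusters, and ribosomal protein genes took 20.01% of its UMIs against 21.5% to 40.1% elsewhere. The mitochondrial share was 2.96% against 1.75% to 2.24% elsewhere. Long genes were raised in it across the table: with genes cut into 4 bins by length, the longest bin, from 49.5 kb, had a median log2 ratio of 0.82 with 31.3% of genes higher, and the shortest bin had a median of -0.09 with 2.73% higher. Of the members 6 were in the longest bin, Dnmt1, Dnmt3a, Tet1, Tet2, Tet3 and Ezh2, 3 in the next, and Uhrf1, of 20.2 kb, in the second shortest.

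Set against the median of their own length bin, 9 members were above it, by 0.30 for Dnmt3b to 1.29 for Uhrf1, and Ezh2 stood at -0.20 from it on the log2 scale. Mki67 was also higher in TIGIT+ Teff, at 158 CPM against 22.1 to 75.0 CPM in the other effector and exhausted clusters. Without the cells that carried proliferation transcripts, 6 of 10 members were still higher, against 12.7% of all genes, and none lower, against 2.27%. Uhrf1 (0.91) and Suz12 (0.97) were no longer higher. The parts of gene length, nuclear transcripts and proliferation in the result were not tested beyond these values.

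**Figure D4:**
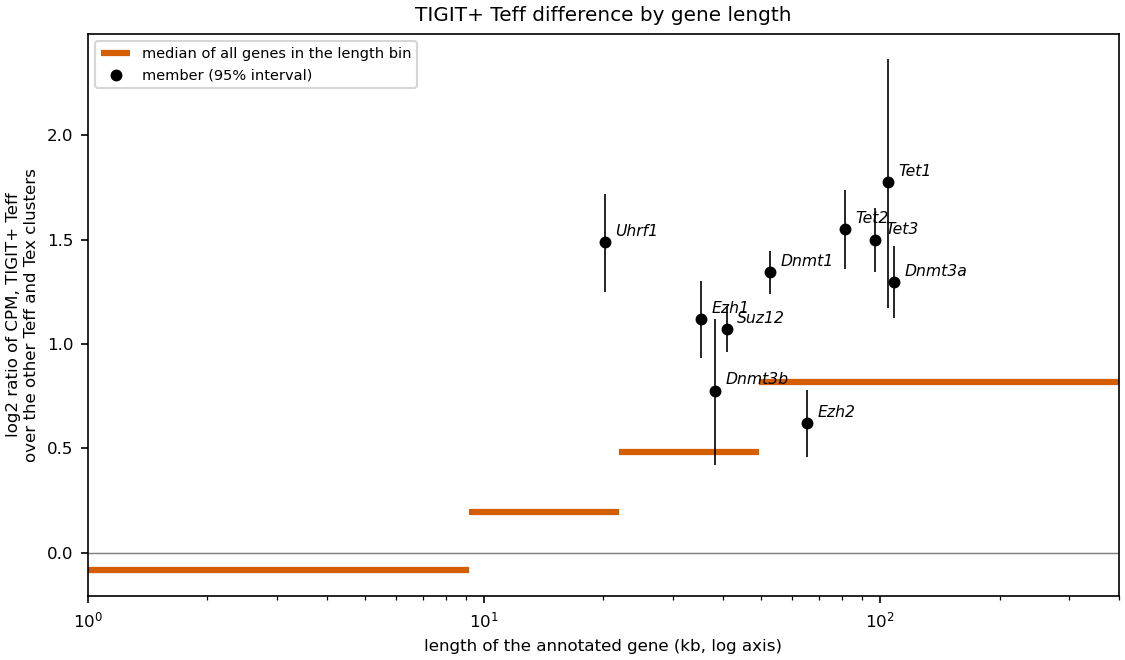
Log2 ratio of CPM in TIGIT+ Teff over the other effector and exhausted clusters (vertical axis) against the length of the annotated gene in kb (horizontal log axis). Black points are the 10 members with 95% intervals, and orange bars are the medians of all genes in each length bin, from -0.09 in the shortest to 0.82 in the longest. Ezh2 was the only member below the median of its bin.

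TIM-3+ Tex and transitory Teff, exhausted cells and early effectors, differed in 1 member. Dnmt3b (ENSMUSG00000027478, chr2:153649450-153687730, plus strand), the paralog of Dnmt3a, was at 14.1, 9.45, 9.37 and 14.8 CPM in TIM-3+ Tex and at 6.55, 4.94, 3.68 and 5.47 CPM in transitory Teff, without overlap. Its log2 ratio was 1.29 (0.87 to 1.73, libraries 0.94 to 1.44), and 1.71% of all genes were higher and 1.97% lower. The library 3 values rested on 3 UMIs in 31 cells of TIM-3+ Tex and on 5 UMIs in transitory Teff. Pooled, Dnmt3b was at 13.4 CPM in TIM-3+ Tex, 14.0 CPM in TIGIT+ Teff and 8.59 CPM in GzmA+ Tex, another exhausted cluster. Its level was thus not particular to TIM-3+ Tex.

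Dnmt3a differed less between the same clusters, with a log2 ratio of 0.15 (-0.08 to 0.39). Dnmt3b therefore took 32.5% of the UMIs of the de novo pair in TIM-3+ Tex and 18.0% in transitory Teff. Tn and Tcm had 29.6% and 29.8%, so the share in TIM-3+ Tex was close to theirs and that in transitory Teff was the lowest of the 8 clusters, not apart from cycling cells (18.2%) or TIGIT+ Teff (18.4%). In cells without proliferation transcripts the Dnmt3b log2 ratio was 1.66 (0.98 to 2.35), but library 3 then had no Dnmt3b UMI in TIM-3+ Tex and the rule of 4 libraries was not met. No member was higher or lower in these cells, against 1.14% and 2.15% of all genes.

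Uhrf1 was at 13.8 CPM in TIM-3+ Tex and 7.69 CPM in transitory Teff, a log2 ratio of 0.84 (0.46 to 1.22), which was 1.07 without library 4 and 0.20 (-0.67 to 1.04) in cells without proliferation transcripts. Tet1 was lowest in TIM-3+ Tex, with 9 UMIs in 1056 cells and none in libraries 2 and 3, and its log2 ratio to transitory Teff was -0.66 (-1.99 to 0.57) and -1.47 without library 1, where it passed as lower. A difference in Tet1 was not detectable at this depth.

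**Figure D5:**
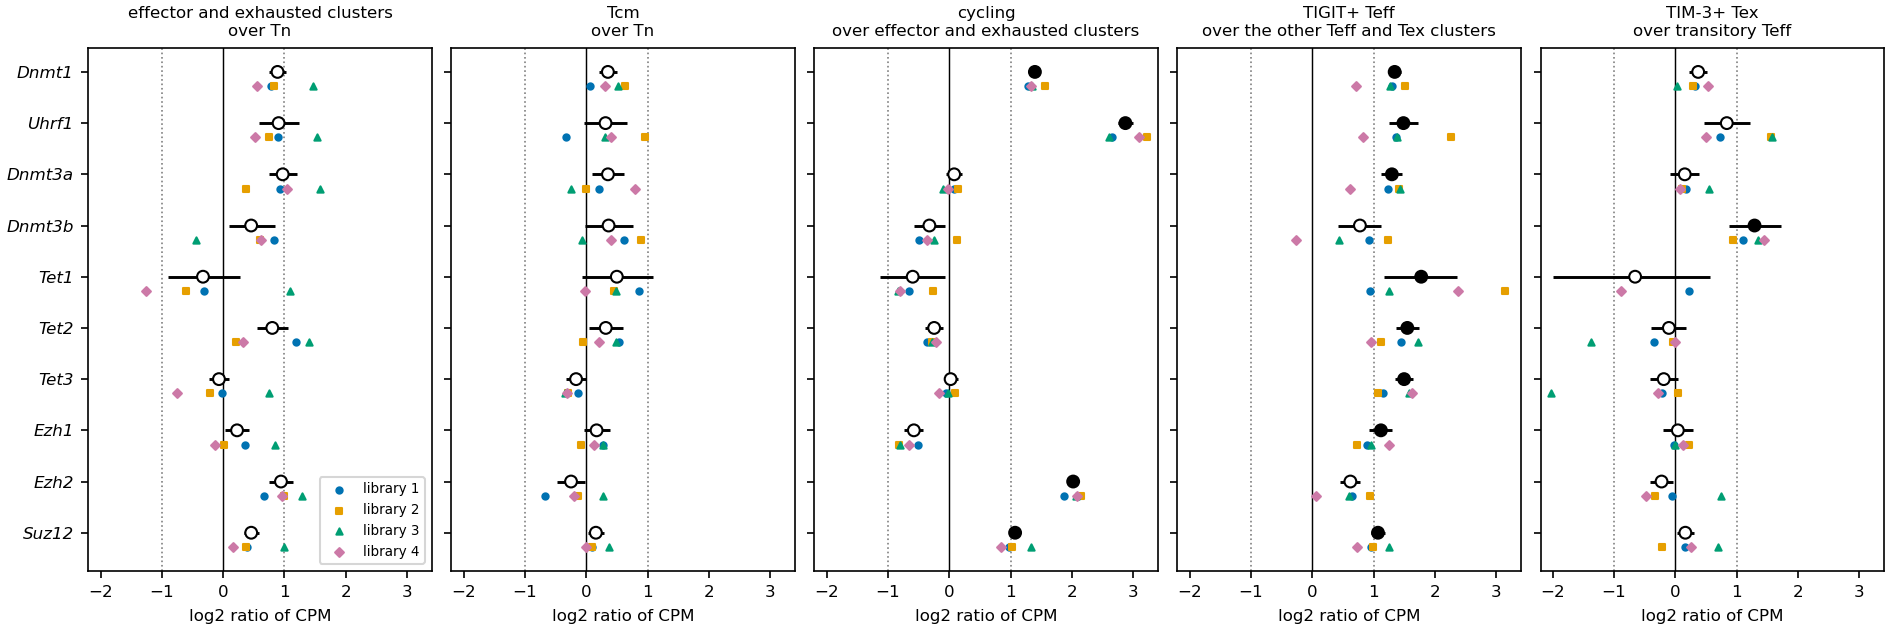
Log2 ratio of CPM (horizontal axis) of each member (vertical axis) in 5 comparisons of clusters. Large circles are the 4 libraries pooled with 95% intervals, filled where the ratio passed 2-fold with the same sign in every library, and small points are libraries 1 to 4, left out where a library had 0 UMIs. The filled circles are 4 in cycling cells, 8 in TIGIT+ Teff, 1 in TIM-3+ Tex and none in the comparisons with Tn.

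Clone size was compared inside transitory Teff, since clonotypes come from the TCR and not from these genes. The 866 cells of 86 clones with more than 5 cells in their library were set against 368 cells whose clonotype occurred once. No member was higher or lower, against 1.74% and 1.88% of all genes. Suz12 was at 70.4 and 60.2 CPM, a log2 ratio of 0.23 (-0.06 to 0.51), and Dnmt3a at 22.1 and 27.5 CPM, a log2 ratio of -0.32 (-0.77 to 0.14). Ezh2 had a log2 ratio of 0.04 (-0.29 to 0.38), with libraries from -0.67 to 0.49 and 2 of 4 above 0. Uhrf1 rested on 36 and 16 UMIs. Tet1, on 5 and 7 UMIs, had a log2 ratio of -1.42 (-3.42 to 0.45), with signs that varied between libraries, and 0.22 without library 4. The median cell had 4830 UMIs in the large clones and 5908 in the single clonotypes.

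Shares of cells with a UMI followed the CPM. Dnmt1 was detected in 83.6% of cycling cells and 27.9% of Tn, Uhrf1 in 64.0% and 6.11%, and Ezh2 in 79.3% and 14.5%. Thinned to 2500 UMIs a cell, these became 40.6% and 10.7% for Dnmt1, 24.2% and 2.61% for Uhrf1, and 34.0% and 5.59% for Ezh2. No cluster of a cell type that should lack these genes was present. As a comparison, Dnmt3l, the germ cell cofactor of DNMT3A and DNMT3B, had 0 UMIs in all 11754 cells, which allows a share of cells with a UMI of up to 0.0255% and does not limit the share of cells that express it.

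The wider pathway was read from 56 further genes: PRC2 partners and demethylases of the mark, Polycomb repressive complex 1, and partners and readers of DNA methylation. Of these 54 passed 100 UMIs, Dnmt3l did not, and Ezhip was not analysed here. In cycling cells 4 of 54 were higher and 1 lower, near the shares of all genes (5.54% and 2.67%). Phf19, a PRC2 subunit that guides the complex to chromatin, was at 14.8 CPM against 2.44 CPM (log2 ratio 2.60, 2.29 to 2.93), and Hells, a remodeler that helps DNA methylation, at 129 against 41.3 CPM (1.64, 1.56 to 1.73). Phf1, an alternative to Phf19 in the same complex, was lower at 18.3 against 38.2 CPM (-1.06, -1.21 to -0.91), and Gadd45g was at -0.91. The pair of Phf genes thus had opposite signs, like Ezh2 and Ezh1.

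In the other comparisons the genes with the highest and lowest log2 ratios were as follows. Against Tn, 7 of 54 were higher in the effector and exhausted clusters and none lower, near the 13.5% and 1.82% of all genes. The highest were Zbtb38, which binds methylated DNA (76.3 against 23.9 CPM, log2 ratio 1.67), and Phf19 (1.56), with Idh2 (-0.88) and Gadd45a (-0.57) at the other end. In Tcm 2 of 54 were higher than in Tn and none lower, against 5.50% and 1.97% of all genes, and these were Phf19 (1.71) and Gadd45g (1.33), with Idh2 (-0.88) and Kdm6b (-0.75) lowest. TIGIT+ Teff had 10 of 54 higher and none lower, against 13.0% and 0.964% of all genes and 31.3% higher among the longest genes. The highest were Kdm6a, the demethylase that opposes PRC2 (97.1 against 36.5 CPM, 1.41), and Zbtb33 (1.37), with Gadd45g (-0.87) and Idh2 (-0.45) lowest. TIM-3+ Tex had none in either direction, against 1.71% and 1.97% of all genes, with Phf19 (1.67) and Scmh1 (0.89) highest and Gadd45a (-0.62) and Gadd45g (-0.59) lowest.

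The genes whose levels ran most like each member were found over the 32 pairs of cluster and library among 7724 genes, by Pearson correlation of log2(CPM + 10). The pairs share libraries, cells of like depth and the cluster definitions, so the values are a description. Uhrf1 was closest to Clspn (0.979), Chaf1a (0.974) and Cdc6 (0.970), and Dnmt1 to Cbx5 (0.970), Nsd2 (0.965) and Atad2 (0.964). Ezh2 was closest to Lmnb1 (0.974), Dek (0.966) and Kif15 (0.956), and Suz12 to Atad2 (0.957), Smarcc1 (0.953) and Topbp1 (0.953).

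The other members had different neighbours. Those of Dnmt3a were Prrc2b (0.934), Acsl4 (0.933) and Sptan1 (0.925), those of Tet2 were Ccnl2 (0.937), Golga3 (0.933) and Dnajc13 (0.922), and those of Tet3 were Tcf20 (0.915), Smg1 (0.905) and Zzef1 (0.896). Ezh1 ran with Snx14 (0.875), Ube2h (0.874) and Malat1 (0.863), the nuclear transcript that marked TIGIT+ Teff. Tet1 ran with Vezf1 (0.856), Kif1b (0.847) and mt-Co1 (0.839). Dnmt3b had lower values, with Zfp950 (0.697), Bcl2l11 (0.695) and Elp2 (0.691) first. Dnmt3b and Tet1 had only 871 and 297 UMIs in all cells, and the part of counting error in their correlations was not tested.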

How the data were processed

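The deposited table held raw UMI counts per gene and cell, made by the authors from 4 10x 5′ libraries with Cell Ranger (7.00) on mm10, as the submitters' processing notes list, with reads downsampled across libraries. The authors kept cells with 2500 to 25000 UMIs, a mitochondrial fraction under 0.15 and transcripts of CD3 and CD8, and named clusters from Monocle3 Leiden clusters. These names were used, and doublets were not removed. Library numbers 1 to 4 were left untied to treatments.

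The members, lists and comparisons were chosen with earlier results of these data known. UMIs were summed per cluster and library to CPM, with Poisson, conditional binomial (log2 ratios) and Clopper-Pearson (shares) intervals at 95%. Calls needed more than 2-fold and the same sign in 4 libraries, among 10991 genes with at least 100 UMIs. Further pathway genes were named as the 2 highest and 2 lowest per comparison, and likeness used genes with at least 1000 UMIs. Thinning used 2500 UMIs a cell and seed 7. The split by proliferation UMIs, the bins of gene length, the Leiden groups of Tcm and the sequence words were added after the data were seen. Gene positions came from GENCODE M21 on GRCm38 (17534 of 17561 symbols matched) and gene starts from RefSeq on GRCm38.p6. Scripts ran in Python 3.11.15 with pandas 2.3.3, scipy 1.17.1, numpy 2.4.6 and matplotlib 3.10.9, and the ratio and call code was tested on simulated data. Alternatives left out each library, changed the denominator, depth, fold, weights, cell names or gene filter, or left out cells with proliferation transcripts, 2 TRB chains or other cell markers.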

Additional observations from a re-analysis of the deposited data

How the results depend on the processing

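Of the counts and shares recomputed under the alternatives, 187 held to within 1.5 times or the stated interval and 22 moved. The main counts of members lower were 0, and a 0 that stayed 0 was taken as held. Leaving out a library also reused all cells of the others, so this tally is a weak check. Of the single ratios 615 held and 102 moved, 22 of them after thinning. Another sign was found for 36 single ratios, of which 1 had been past 2-fold, Tet1 by clone size in transitory Teff. Against Tn, the effector and exhausted clusters had 1 member higher (Uhrf1) by the mean share per cell, 5 at 1.5-fold, and 0 to 2 when a library was left out. In Tcm over Tn, Uhrf1 was 1 member lower by Leiden number. In cycling cells Tet1 was 1 member lower at 1.5-fold, and 3 to 4 members were higher when a library was left out. In TIGIT+ Teff 8.49% of all genes were higher and 2.18% lower among genes with at least 1 UMI, and 7 to 8 members were higher when a library was left out. There, 6 were higher without ribosomal and mitochondrial genes in the total, and Ezh1 and Suz12 also fell short by the median of the libraries. In TIM-3+ Tex 0 members were higher without cells with proliferation transcripts, and 2 by the median of the libraries or at 1.5-fold. Among the alternatives, the share of all genes was computed only for the gene filter and without cells with proliferation transcripts. The counts under the others, 1.5-fold among them, thus have no background. Tet1 was 1 member lower in TIM-3+ Tex by the mean share per cell and without cells with 2 TRB chains or other markers. When a library was left out, 1 to 2 were higher and 0 to 1 lower. In transitory Teff with proliferation UMIs, 0 to 1 were higher and 0 to 1 lower when a library was left out. The Ezh2 share was 54.1% in Tn and 38.4% in Tcm after thinning, and 89.7% to 91.6% in cycling cells when a library was left out. The Tet3 share in Tn was 65.7% after thinning. The cause was not tested. Depth limits Tet1 and Dnmt3b, the sparsest members. Log2 ratios, their intervals and the 2-fold limit used UMIs pooled over the libraries. The libraries made up different parts of each cluster, so a pooled ratio can also hold differences between libraries. Within a library only the sign counted for a call. Calls needed the same sign in 4 libraries, and no paired test was run. Treatments were not compared because the library numbers are not tied to groups.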
